A study of Mus musculus with 3 samples.

Results

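Homeobox transcription factor genes were examined in the promoter H3K4me3 peak lists of MLg cells, an established fibroblast line from mouse lung. Members were the genes that a deposited peak within 2000 bp of their transcription start site (TSS) carried by name in at least 1 of the 3 lists, with a name beginning Hoxa, Hoxb, Hoxc, Hoxd, Meis, Pbx, Pitx, Prrx, Cux, Zfhx, Irx, Lhx, Dlx, Msx, Nkx, Pknox, Hmbox, Shox, Tshz, Emx, Gsc, Adnp or Satb, or with the name of a sine oculis homeobox gene. The choice used names and positions and no comparison between libraries. It gave 40 genes of the 9080 genes that had a promoter region, of which 39 code for proteins and 1, Hoxb3os, is a noncoding transcript of the HoxB cluster. The study profiled H3K4me3, a histone mark of active promoters, by ChIP-seq in 3 groups with 1 library each. The Ctrl group carried no TGFB1 treatment in its label. The TGFB1 group received transforming growth factor beta 1 at 5 ng/ml for 4 h, starting 20 h after transfection and ending at harvest at 24 h. The TGFB1+miR-9-LOF group received TGFB1 in the same way together with 60 nM of an antagomiR, an antisense inhibitor, against the microRNA miR-9 to give a loss of function (LOF). The labels did not state for each library whether the negative control probe was present in the Ctrl and TGFB1 groups. The paper describes the untreated cells of this ChIP-seq as transfected with the control antagomiR, whereas the Ctrl label reads WT. All groups share a single established cell line.

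The homeobox encodes the homeodomain, a helical DNA-binding fold that most members use to recognise short AT-rich sites. HOX proteins, encoded in clusters in the order in which they act along the body axis, give cells positional identity and bind DNA together with TALE cofactors of the PBX, MEIS and PKNOX families. Fibroblasts are known to keep a HOX pattern of the body site they came from. Other homeobox families direct the formation of the limb, skull, brain and organs.

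The sequences that bear on the comparisons are those of the inhibited microRNA and of promoters that the libraries covered differently. Mature miR-9-5p is made from 3 mouse loci, at chr3:88215613-88215635, chr7:79505279-79505301 and chr13:83738821-83738843, all on the plus strand. Its seed, bases 2 to 8, is in capitals. The promoters of Meis1 and Hoxc4 are shown because only the TGFB1 library covered them, that of Shox2 because Ctrl and TGFB1 covered it whole and TGFB1+miR-9-LOF not at all, and that of Msx1 because all 3 libraries covered part or all of it. Each is the 250 bases before the RefSeq start, 5′ to 3′ on the strand of the gene, and capitals mark runs of 3 or more G or of 3 or more C, the units of which G-quadruplexes, a subject of the study, are built. Sequences are from RefSeq on GRCm38.p6, the assembly that mm10 represents.
mmu-miR-9-5p: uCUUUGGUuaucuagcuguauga
Meis1, chr11:19018970-19019219, minus strand: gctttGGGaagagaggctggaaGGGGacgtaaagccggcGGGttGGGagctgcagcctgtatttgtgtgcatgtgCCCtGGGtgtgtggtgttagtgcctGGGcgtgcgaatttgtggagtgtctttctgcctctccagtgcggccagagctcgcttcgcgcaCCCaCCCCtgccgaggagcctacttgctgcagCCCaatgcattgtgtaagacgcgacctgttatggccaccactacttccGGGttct
Hoxc4, chr15:103034145-103034394, plus strand: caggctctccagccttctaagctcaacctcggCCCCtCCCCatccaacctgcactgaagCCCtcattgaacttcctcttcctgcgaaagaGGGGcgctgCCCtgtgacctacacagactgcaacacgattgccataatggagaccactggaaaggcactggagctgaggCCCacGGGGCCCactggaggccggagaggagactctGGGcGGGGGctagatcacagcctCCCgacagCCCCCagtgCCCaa
Shox2, chr3:66981772-66982021, minus strand: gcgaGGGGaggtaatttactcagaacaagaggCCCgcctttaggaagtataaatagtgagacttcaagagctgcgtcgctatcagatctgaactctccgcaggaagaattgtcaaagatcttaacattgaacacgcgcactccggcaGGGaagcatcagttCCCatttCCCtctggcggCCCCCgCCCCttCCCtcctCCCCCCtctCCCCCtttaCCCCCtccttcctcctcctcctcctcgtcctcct
Msx1, chr5:37824586-37824835, minus strand: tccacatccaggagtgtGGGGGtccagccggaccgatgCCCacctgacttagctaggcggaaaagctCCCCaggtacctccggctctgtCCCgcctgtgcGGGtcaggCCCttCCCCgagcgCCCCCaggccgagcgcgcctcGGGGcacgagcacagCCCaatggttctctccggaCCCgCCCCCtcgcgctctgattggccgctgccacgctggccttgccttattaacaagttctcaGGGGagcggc
Of these 250 bases, Ctrl, TGFB1 and TGFB1+miR-9-LOF covered 0, 250 and 0 in Meis1 and also 0, 250 and 0 in Hoxc4. In Shox2 they covered 250, 250 and 0 bases, and in Msx1 they covered 239, 250 and 120 bases. The Shox2 region also holds an annotated TSS of its neighbour Rsrc1.

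Values of the libraries are given throughout in the order Ctrl, TGFB1 and TGFB1+miR-9-LOF. Their lists held 8727, 9116 and 4959 peaks, covering 15.0, 16.2 and 6.87 Mb, and 95.1% to 97.2% of the peaks were within 2000 bp of a TSS. No read counts were part of the lists, so the depth behind them is unknown, and with 1 library per group no difference has a replicate check and no p-value was computed. Of 16 fibroblast markers, Ctrl and TGFB1 covered 9, among them Col1a1, Col1a2, Pdgfra, Pdgfrb and Vim, and TGFB1+miR-9-LOF covered 6. The summed covered length of these markers was 18849, 20819 and 8422 bp. The promoters of Col3a1, Col6a1, Col6a2, Thy1, Fap, Tcf21 and Tbx5 had no peak in any list. None of 12 epithelial, 7 endothelial and 6 neural markers had a promoter peak in any library, and of 7 immune markers only Cd14 had one, in Ctrl and TGFB1.

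A minority of the annotated genes of these families carried promoter H3K4me3, as did a minority of all genes. Among all genes with a RefSeq promoter window, described below, 7234 of 27025 had a promoter region. In these families 26 genes with such a window had a region and 59 had none. A share over all protein-coding genes was not computed. RefSeq annotates 115 protein-coding genes with such names on GRCm38.p6, and 39 of them (33.9%) named a promoter peak in at least 1 list. The share was 11 of 39 in the HOX clusters and 9 of 15 in the TALE family. It was 3 of 6 for the sine oculis homeobox genes, 4 of 9 for paired-like genes, 5 of 8 for zinc finger homeobox genes and 1 of 4 for CUT genes. Only 1 of 8 LIM genes and 4 of 25 NKL genes, none of them an Nkx gene, were in the lists. Hmbox1 was the single gene of its family.

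The 3 libraries covered the homeobox genes to different extents. A gene was counted as covered where any peak of a library lay in its promoter regions, which were made by merging the overlapping peaks of the 3 lists. Ctrl covered 34 of 40 genes (85.0%, 95% Wilson interval 70.9 to 92.9), TGFB1 covered 39 (97.5%, 87.1 to 99.6) and TGFB1+miR-9-LOF covered 11 (27.5%, 16.1 to 42.8). Over all 9080 genes these shares were 94.7%, 98.2% and 55.8%. These intervals cover counting error only, and genes are not replicates of a condition. A name in any list made a gene a member, so 8 members entered through the TGFB1 list alone and 1 through the Ctrl list alone. The shares covered are thus set in part by how genes were taken, for the members and for all 9080 genes. Among covered members the median covered length was 1726.5, 1770 and 1360 bp, close to the medians of 1711, 1771 and 1351 bp over all genes. No member was broad (2.7 kb or more) in any library, and 9, 12 and 1 members were medium (2 kb up to 2.7 kb). Over all genes, 245 of 8599, 322 of 8915 and 18 of 5071 covered genes were broad, and 1595, 2006 and 198 were medium. Broad genes were thus a small share of all genes too.

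**Figure D1:**
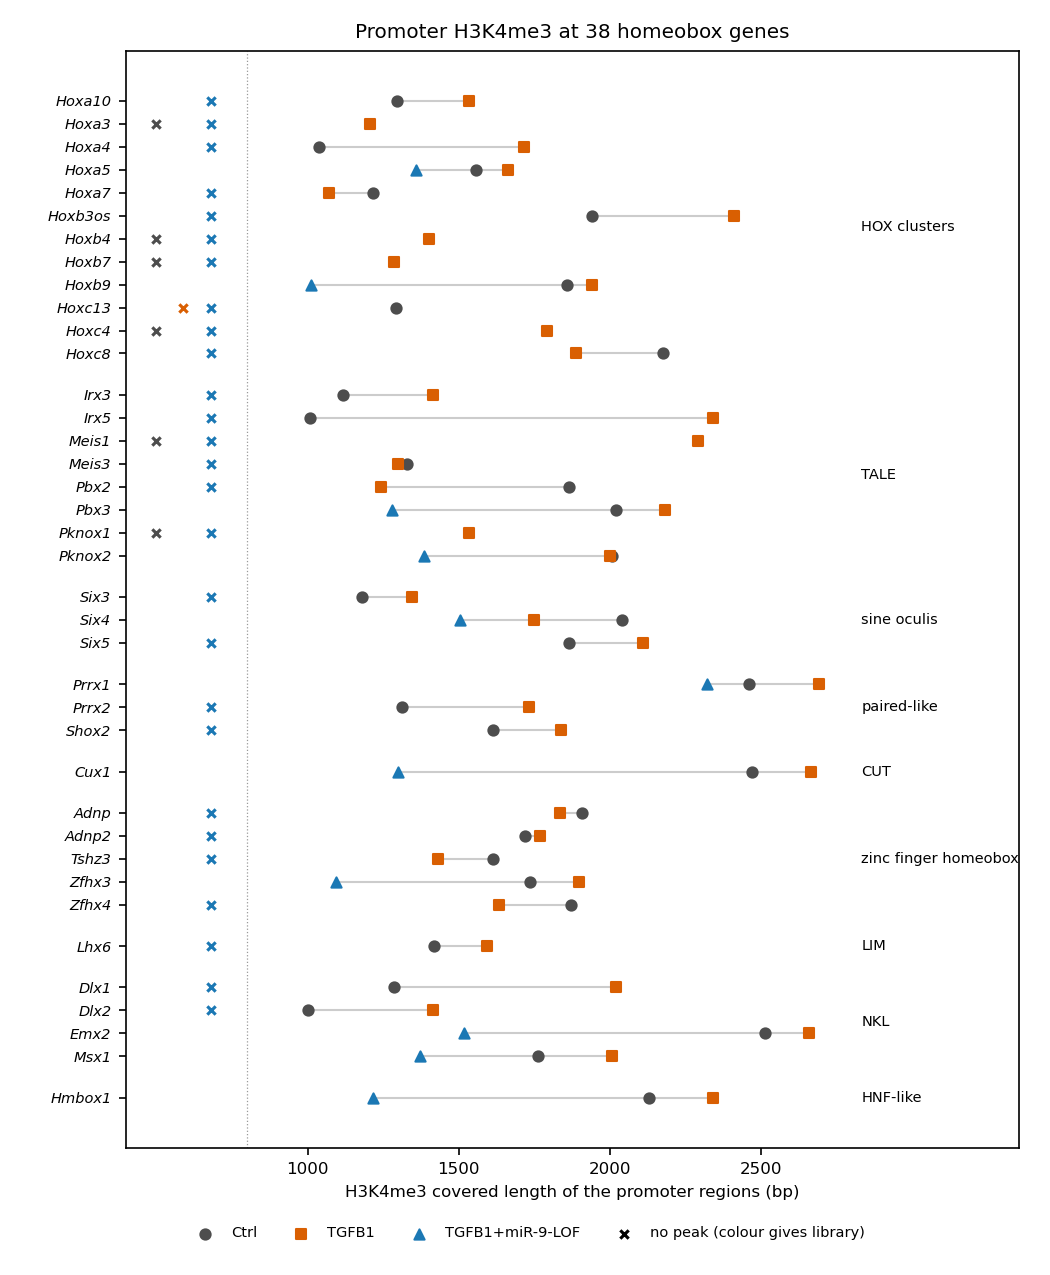
Covered length of the promoter regions (bp) of 38 of the 40 homeobox genes, grouped by family, with a circle for Ctrl, a square for TGFB1 and a triangle for TGFB1+miR-9-LOF. Crosses left of the dotted line mark libraries with no peak. The triangles are present for 11 genes and lie left of both other symbols, and 6 genes have a square without a circle.

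The comparison of TGFB1 with Ctrl asks what TGFB1 changed at these promoters. Promoter peaks were present in TGFB1 and absent from Ctrl at 6 members, 4 of them HOX genes and the other 2 genes of the TALE family that encodes HOX cofactors. Among the HOX genes, Hoxc4 (chr15:103034121-103035910) had a covered length of 0, 1790 and 0 bp. Hoxb4 (chr11:96318538-96319940), which in mice and humans is known for expanding blood stem cells when overexpressed, had 0, 1403 and 0 bp. Hoxb7 (chr11:96286045-96287329) had 0, 1285 and 0 bp, and Hoxa3 (chr6:52211948-52213154), a gene of pharyngeal organ formation, had 0, 1207 and 0 bp. Of the cofactor genes, Meis1 (chr11:19017895-19020185) had 0, 2291 and 0 bp, the longest of the 6. Pknox1 (chr17:31564925-31566458), which encodes a partner of PBX proteins also known as Prep1, had 0, 1534 and 0 bp. All 6 regions were therefore present in a single library. Their peak scores in TGFB1, the authors' value for each peak, were 30 for Hoxa3, 39 for Meis1, 42 for Hoxb4, 52 for Pknox1, 60 for Hoxc4 and 62 for Hoxb7, against a median of 91 over all covered genes.

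These 6 made up 15.4% of the 39 members covered in TGFB1 (Wilson interval 7.25 to 29.7), against 5.37% over all genes covered there. The 6 are members only through the TGFB1 list, and the genes over all were taken from the lists in the same way. In the other direction Hoxc13, a gene of hair and nail formation, had 1292 bp in Ctrl and 0 bp in both other libraries. This 1 gene, a member only through the Ctrl list, is 2.94% of the 34 members covered in Ctrl, against 1.9% over all genes.

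Where both libraries had a peak, covered length was at least 25% longer or at least 20% shorter, the same ratio either way, at 8 of 33 members. It was longer in TGFB1 at 6 (18.2%, 8.61 to 34.4), against 10.6% over all genes. Irx5, which encodes an Iroquois factor (chr8:92354948-92358277), had 1007, 2339 and 0 bp, but its Ctrl and TGFB1 peaks shared only 16 bp, so that these lengths belong to nearly separate stretches. The Ctrl peak carried the name Crnde, the noncoding gene that starts there on the other strand. With at least 50% of the shorter stretch shared, Irx5 dropped out and 5 members were longer. Irx3, the neighbour of Irx5, had 1118, 1414 and 0 bp. Hoxa4 had 1038, 1715 and 0 bp, a 1.65-fold difference between TGFB1 and Ctrl. Dlx1 had 1285, 2019 and 0 bp and Dlx2, its neighbour on chromosome 2 and like it a gene of jaw and forebrain development, had 1001, 1414 and 0 bp. Prrx2, a gene of limb and skull mesenchyme, had 1312, 1731 and 0 bp. All 6 were without a peak in TGFB1+miR-9-LOF.

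Covered length was shorter in TGFB1 at 2 members (6.06%, 1.68 to 19.6), against 2.98% over all genes. Pbx2, which encodes a HOX cofactor, was one of them, with 1863, 1242 and 0 bp. Pbx3, of the same family, did not reach the limit in either direction, with 2021 and 2181 bp in Ctrl and TGFB1. Among member peaks within the limit of 2000 bp, those farthest from the TSS were Hoxa7 in TGFB1, at 1576 bp, and Prrx1 in Ctrl, at 1557 bp. Over the 33 members the median log2 ratio of TGFB1 to Ctrl was 0.11 (order-statistic interval 0.02 to 0.19), against 0.06 over all genes. By any amount, 23 members were longer and 10 shorter in TGFB1. The same count over all genes, of which 8436 had a peak in each of these lists, gave 5429 and 2990. Longer was thus the more common direction in all genes as well as in the members.

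The comparison of TGFB1+miR-9-LOF with TGFB1 asks what the inhibition of miR-9 changed in cells treated with TGFB1. Of 39 members covered in TGFB1, 28 were lost, with no peak called after TGFB1+miR-9-LOF (71.8%, 56.2 to 83.5), against 43.2% over all genes. No member was gained, against 0.158% over all genes. The loss took 9 of 11 HOX members, 7 of 9 TALE members, 2 of 3 sine oculis homeobox members, 3 of 4 paired-like members, 4 of 5 zinc finger homeobox members, the single LIM member and 2 of 4 NKL members. Cux1 and Hmbox1, each the only member of its family, were kept. TGFB1+miR-9-LOF was the library with the fewest peaks over all genes, and the part of library depth or enrichment in the loss at these genes was not tested.

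Lost members ranged in TGFB1 from 1072 to 2514 bp. Hoxb3os had 1939, 2410 and 0 bp, and its region also holds an annotated TSS of Hoxb2. Six5 had 1864, 2108 and 0 bp. Adnp, which encodes a chromatin protein with a homeodomain and zinc fingers, had 1907, 1833 and 0 bp and Adnp2 had 1719, 1770 and 0 bp. Hoxc8 had 2175, 1889 and 0 bp. Shox2, a gene of limb growth and of the cardiac pacemaker, had 1614, 1839 and 0 bp. Zfhx4 had 1870, 1633 and 0 bp, Tshz3 had 1614, 1430 and 0 bp, and Lhx6, a gene of forebrain interneurons, had 1419, 1593 and 0 bp. Others were Hoxa10 with 1297, 1533 and 0 bp, Hoxa7 with 1215, 1072 and 0 bp, Meis3 with 1328, 1299 and 0 bp, and Six3 with 1181, 1344 and 0 bp.

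The 11 members that TGFB1+miR-9-LOF still covered came from 8 families. Prrx1 (chr1:163310864-163313647), a regulator of mesenchymal and fibroblast identity, had the longest region left, with 2459, 2691 and 2321 bp. Hoxa5 (chr6:52202764-52204596), which mouse lung development requires, had 1557, 1663 and 1360 bp. Six4 (chr12:73111133-73113218), a gene of muscle development, had 2039, 1747 and 1503 bp. These 3 were the only kept members whose length in TGFB1+miR-9-LOF was less than 20% below that in TGFB1.

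The other 8 were at least 20% shorter (72.7% of 11, 43.4 to 90.3), against 73.4% over all genes, and none was longer, against 0.0198% over all genes. Cux1 (chr5:136565432-136568116), which encodes a CUT homeodomain factor, had 2468, 2665 and 1298 bp, the largest decrease by log2 ratio (-1.04). Hmbox1 (chr14:64948652-64951054), a telomere-binding protein, had 2128, 2341 and 1215 bp in a region that also holds a TSS of Ints9. Hoxb9 (chr11:96271434-96273374) had 1859, 1941 and 1011 bp. Emx2, a gene of the cerebral cortex and urogenital tract, had 2511, 2658 and 1516 bp, and Zfhx3 had 1734, 1898 and 1094 bp. Pbx3 had 2021, 2181 and 1279 bp and Pknox2 had 2007, 1999 and 1386 bp, and these were the 2 TALE genes kept. Msx1, a gene of tooth and palate formation, had 1761, 2005 and 1372 bp. The median log2 ratio over the 11 kept members was -0.77 (-0.95 to -0.22), against -0.49 over all genes covered in both libraries. No list held a peak under 1000 bp, so that shrinkage below this length would count as loss.

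Against Ctrl, which TGFB1+miR-9-LOF differs from by both treatments, 23 of 34 members were lost (67.6%, 50.8 to 80.9), against 41.3% over all genes. No member was gained, against 0.434%. Of the 11 covered in both, 9 were at least 20% shorter (81.8%, 52.3 to 94.9), against 65.5%, and none was longer, against 0.178%. The median log2 ratio was -0.66 (-0.88 to -0.20), against -0.43 over all genes. Hoxa5 and Prrx1 were less than 20% shorter. This comparison shares its libraries with the others, so that the 6 members covered in TGFB1 alone do not enter it.

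**Figure D2:**
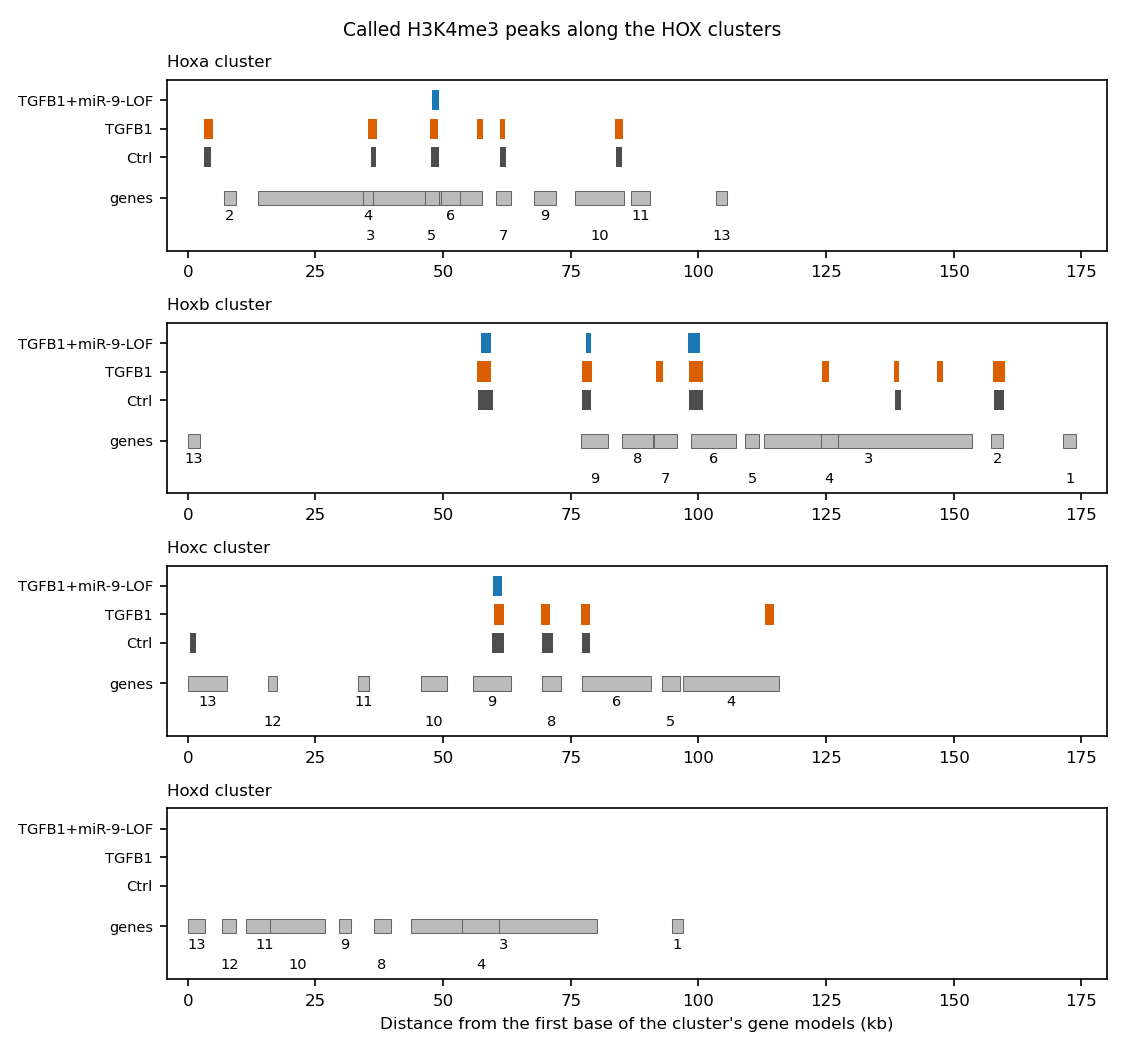
Called H3K4me3 peaks of the 3 libraries along the HOX clusters, in kb from the first base of the gene models of each cluster, with the gene models shown in grey and gene numbers below them (not every model is drawn). The blue TGFB1+miR-9-LOF peaks number 1 in HoxA, 3 in HoxB and 1 in HoxC, and HoxD holds no peak of any library.

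The HOX clusters were covered in scattered regions. Peaks of any name, distal ones included, formed 19 regions within the gene models of the 4 clusters. Of these, Ctrl covered 14, TGFB1 18 and TGFB1+miR-9-LOF 5, with 24684, 31174 and 8308 bp. A share over all regions was not computed. Over all 9080 genes, a different unit, the shares covered were 94.7%, 98.2% and 55.8%. HoxA held 5, 6 and 1 peaks, HoxB 5, 8 and 3, and HoxC 4, 4 and 1. HoxD, with 9 genes over 96.9 kb, held 0 peaks in every library. The largest number of peaks in TGFB1+miR-9-LOF was thus in HoxB, where it covered 5264 bp against 10607 bp in Ctrl and 14661 bp in TGFB1.

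Some cluster peaks carried HOX names but were farther than 2000 bp from the TSS that named them, and they are not among the counts of members. The region named Hoxb6 (chr11:96292361-96295131) had 2594, 2591 and 2213 bp with scores of 121, 94 and 60, and it lies at a GENCODE M21 start of Hoxb6. A second region named Hoxc8, at an annotated start of Hoxc6 (chr15:102998043-102999960), had 1694, 1859 and 0 bp. Of 2 distal regions named Hoxb3, the one centred about 10 kb downstream had 1288, 1069 and 0 bp and the other had 0, 1225 and 0 bp. Outside the clusters, a second region of Zfhx3, centred at -10375 bp from its TSS in the Ctrl list, had 2093, 2186 and 0 bp, while the promoter region of Zfhx3 kept 1094 bp there.

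Peaks at homeobox genes had low scores within their own lists. Scores are not scaled between libraries, so each was ranked as a percentile among the promoter peaks of the same list. The median rank of the members was 21.4, 23.5 and 26.7 in the 3 lists, where 50 is the middle of a list. Below the middle lay 25 of 34, 31 of 39 and 8 of 11 members. The highest ranks were those of Hoxa5 in Ctrl (89.7), Hoxb9 in TGFB1 (89.4) and Msx1 in TGFB1+miR-9-LOF (85.5). Zfp genes, a large family of zinc finger factors taken for comparison, had median ranks of 41.2, 47.3 and 42.7. Homeobox genes with other names, described last, had median ranks of 44.2, 29.8 and 31.7 over 18, 18 and 8 genes, which in TGFB1 and TGFB1+miR-9-LOF are nearer to the members than to the Zfp genes.

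**Figure D3:**
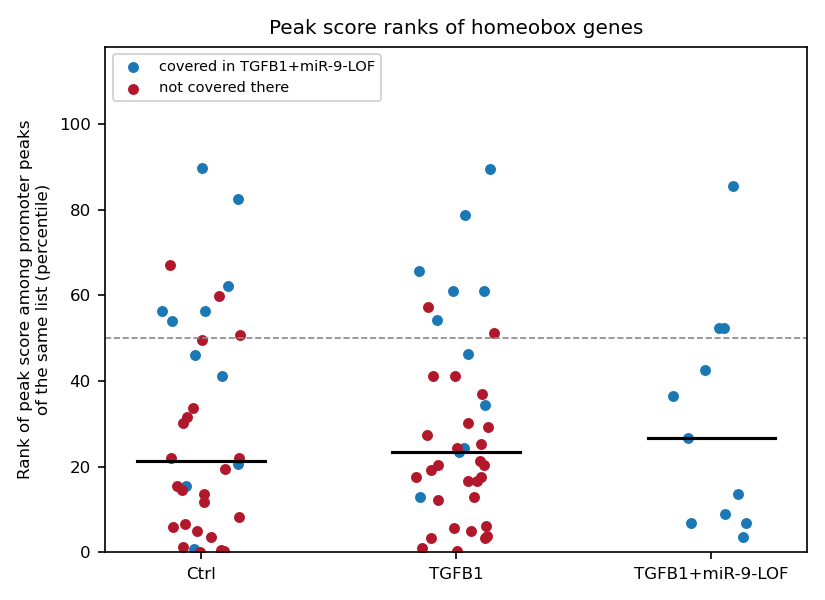
Rank of the peak score of each homeobox gene among the promoter peaks of the same list (percentile), by library. Blue points are the 11 genes covered in TGFB1+miR-9-LOF, red points those not covered there, black bars the medians of 21.4, 23.5 and 26.7, and the dashed line the middle of each list. Most points of every library lie below the dashed line.

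The score in TGFB1 differed between members kept and lost in TGFB1+miR-9-LOF. The 11 kept members had a median TGFB1 score of 95 (53 to 143) and the 28 lost members one of 59 (30 to 98), so the groups overlapped. In Ctrl the medians were 84 for the kept members and 50.5 for the 22 lost members that Ctrl also covered. Their median covered length in TGFB1 was 2005 bp for kept and 1613 bp for lost members.

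Over all genes the share kept also followed the TGFB1 score, from 12.8% in the lowest of 5 score classes of about equal size (25 to 61) through 37.3%, 59.5% and 80.9% to 93.7% in the highest (126 to 669). Members kept were 1 of 18, 3 of 10, 2 of 6, 4 of 4 and 1 of 1 in the same classes. The member kept from the lowest class was Prrx1, with a TGFB1 score of 53. The shares of all genes, applied to the number of members in each class, give 13.8 kept members, where 11 were kept. For the Zfp genes the same calculation gives 140.4, where 128 of 267 were kept.

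**Figure D4:**
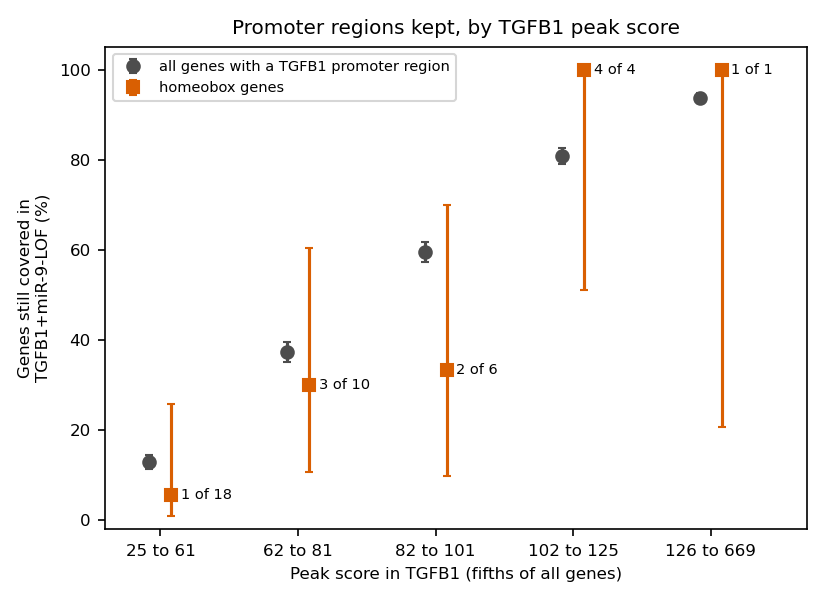
Share of genes covered in TGFB1 that TGFB1+miR-9-LOF also covered (percent), by 5 classes of the TGFB1 peak score that hold about equal numbers of all genes. Circles are all genes, squares the homeobox genes with their counts, and bars 95% Wilson intervals. In both sets the share is lowest in the class of scores 25 to 61, where 1 of 18 homeobox genes and 12.8% of all genes were kept, and the intervals of the homeobox genes are wide.

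Peaks at the member genes were centred farther downstream of the TSS, at the median, than all promoter peaks. The median distance of the peak centre was 619 bp (268 to 944) for the 33 Ctrl peaks, 641 bp (515 to 830) for the 40 TGFB1 peaks and 754 bp (9 to 1324) for the 11 TGFB1+miR-9-LOF peaks, against 383, 381 and 423 bp over all promoter peaks. A centre at least 500 bp downstream was found for 57.6% (40.8 to 72.8), 67.5% (52.0 to 79.9) and 72.7% (43.4 to 90.3) of the member peaks, against 33.5%, 32.6% and 41.1%. The TSS itself was inside the peak for 60.6%, 62.5% and 36.4% of them, against 90.4%, 92.4% and 73.9%. Hoxa7 was an example, with peaks centred 1513 bp downstream in Ctrl and 1576 bp in TGFB1. Prrx1 had peaks at 1557, 1348 and 1324 bp, whereas Tshz3 had peaks upstream, at -1100 bp in Ctrl and -1127 bp in TGFB1.

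The position was not the same in other transcription factor families. Zfp peaks were centred at 254, 283 and 293 bp, nearer the TSS than all promoter peaks, and Klf peaks at 995, 847 and 646.5 bp, from 11, 11 and 6 peaks. Peaks of homeobox genes with other names were centred at 335.5 and 332.5 bp in Ctrl and TGFB1, below the medians of all promoter peaks, and at 586 bp in TGFB1+miR-9-LOF, from 18, 18 and 8 peaks. Of these peaks, 27.8% in Ctrl and 27.8% in TGFB1 had a centre at least 500 bp downstream. The distance is to the TSS that the deposited annotation used, and another annotated start of the same gene would give another distance. For Six3, no GENCODE M21 start lies within 500 bp of the region.

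**Figure D5:**
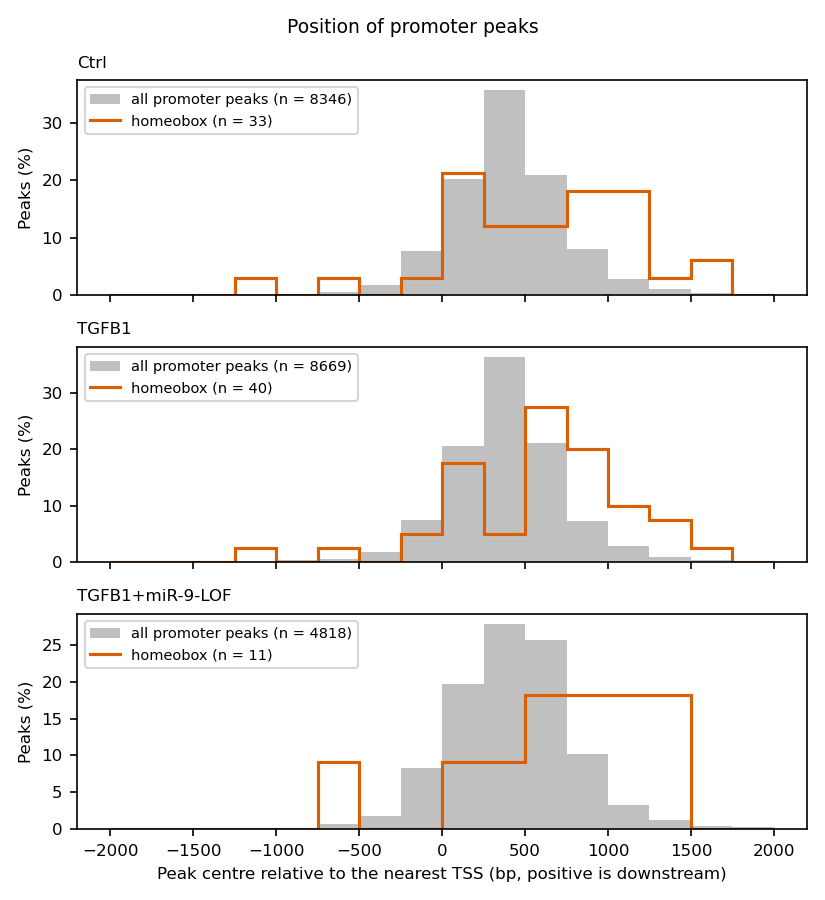
Distance of the peak centre from the nearest TSS (bp, downstream positive) as a percentage of promoter peaks in bins of 250 bp, for all promoter peaks (grey) and those of homeobox genes (orange), by library. Grey is highest from 250 to 500 bp in every panel. The orange lines extend farther to the right, with 57.6%, 67.5% and 72.7% of peaks at 500 bp or more.

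The promoter sequences of members were CpG-rich, like those of other genes with a region. RefSeq windows of 300 bases (250 before and 50 after the start) were found for 26 members in 30 windows. Peaks did not always reach these windows. Among windows of the members each library covered, its peaks touched 14 of 26 in Ctrl, 20 of 30 in TGFB1 and 5 of 8 in TGFB1+miR-9-LOF. They covered 9, 11 and 0 windows whole. The median ratio of observed to expected CpG was 0.70, against 0.79 over all genes with a promoter region and 0.38 over all 32851 promoters of the table. Homeobox genes of the same families without a region had a median ratio of 0.68 in 68 windows, close to the 0.70 of the members.

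Motifs were searched on both strands of these windows as plain letters, and a match is a description of the sequence only. A G-quadruplex pattern, 4 runs of at least 3 G with loops of 1 to 7 bases, was present in 9 of 30 windows (30.0%), against 28.4% for all genes with a region and 18.6% of all promoters. It was present in 2 of 8 windows of kept members and 7 of 22 of lost members. The windows of Hoxa10, Six3 and Tshz3 that hold the pattern were not touched by a peak of any library. The others with it were covered in part or whole by at least 1 library. Shox2, printed above, is one of the lost members with the pattern, on the strand opposite to the gene. For the other motifs the shares of all genes with a region and of all promoters follow in this order. ACCAAAG, the complement of the miR-9 seed, was present in 3.33% of the member windows, which is 1 window of Hoxa10, against 3.24% and 4.23%. No peak of any library touched that Hoxa10 window. CAGAC, a core of sites bound by SMAD proteins, was found in 46.7% against 45.6% and 49.6%, and CCAAT in 36.7% against 38.2% and 37.4%. TAATTA, a homeodomain core, was found in 2 of 30 windows (6.67%), against 2.34% and 5.29%. TGACAG, a core bound by MEIS and PKNOX proteins, was found in 13.3% against 15.9% and 19.2%. Matches of TGACAG and CAGAC can share bases, since the first ends with the letters that begin the second.

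Homeobox genes with other names were taken as the rest of the family. Of 93 listed genes, 18 had a promoter region, and Ctrl and TGFB1 covered all 18. None was gained or lost between these libraries, against 5.37% and 1.9% over all genes. In TGFB1, 6 of 18 were at least 25% longer (33.3%, 16.3 to 56.3), against 10.6% over all genes, and none was at least 20% shorter, against 2.98%. They included Zeb2, with 1894, 3324 and 0 bp, and Zeb1, with 1081, 1549 and 0 bp, both encoding repressors of epithelial genes. The Zeb2 length came from 1 region in Ctrl and was summed over 2 regions in TGFB1. It therefore does not give the widening of a single region. Tgif1, a SMAD corepressor, had 1653, 2179 and 0 bp. Only 8 of 18 were covered after TGFB1+miR-9-LOF, so that 10 (55.6%, 33.7 to 75.4) were lost relative to TGFB1, against 43.2% over all genes and 71.8% of the members. The intervals of the 2 homeobox shares overlap. The 18 genes include the ceramide synthases Cers2, Cers4, Cers5 and Cers6, of which only Cers4 was lost. Among those kept, Pax3 had 2605, 2467 and 1835 bp and Cers6, a ceramide synthase with a homeobox domain, had 1997, 1847 and 1413 bp.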

How the data were processed

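H3K4me3 ChIP-seq (antibody ab8580) was measured in 3 libraries of MLg cells, grouped by their treatment labels. Processing notes of the submitters give the build mm10 and the tools MACS3, HOMER, bedtools, deepTools (3.5.1), Picard (1.119), Bowtie2 and Trimmomatic. The study states broad peak calling with MACS3 for this mark. An input control and any scaling for depth were not given in the sources used here. The authors deposited a list per library with a score for each peak, its position, the name of the gene with the nearest TSS and the distance of the peak centre from it. The deposited score was used only within a list, except in 1 alternative. The lists held no counts, so depth is unknown and intervals cover counting error only.

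Overlapping peaks (at least 1 bp) of the lists were merged into regions. The covered length of a gene was the number of bp under a library's peaks, summed over its promoter regions. Genes covered in only 1 library were gained or lost, and others were longer or shorter where their lengths had a ratio of 25% or more above 1 (20% below 1 the other way). With 1 library per group nothing was tested. Shares carry 95% Wilson intervals and medians order-statistic intervals. Every member could be named, and some are not reported here. Members, families, marker lists and comparison families were chosen with earlier results of these data known. Alternatives were peaks scoring at least 50, a distance of at most 1000 bp, peaks carrying the gene's name only, the widest region of a gene, an overlap of 50%, a ratio of 1.5 and, chosen after seeing the data, genes by GENCODE M21 starts within 500 bp. The steps were tested on simulated data. Promoter windows for Hoxb7, Irx5 and other unmatched members were not used. Python 3.11.15, numpy 2.4.6, pandas 2.3.3, scipy 1.17.1 and matplotlib 3.10.9 were used.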

Additional observations from a re-analysis of the deposited data

How the results depend on the processing

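No paired analysis was possible because each group has 1 library. Of 111 recomputed values for the homeobox genes, 99 stayed the same, 12 moved and none reversed. Counts were called the same within 1.5 times the main count. Median log2 ratios were called the same inside the order-statistic interval of the main median. With peaks scoring at least 50 only, 33 members and 8264 genes over all remained. Ctrl, TGFB1 and TGFB1+miR-9-LOF covered 21, 31 and 1 of these members, and 7367, 7959 and 2032 of all genes. TGFB1 against Ctrl gave 12 gained, 2 lost, 2 longer and 0 shorter members, against 896, 304, 563 and 143 of all genes. TGFB1+miR-9-LOF had 1 shorter member against either TGFB1 or Ctrl, where 1367 and 1170 of all genes were shorter. With a distance of at most 1000 bp (31 members), TGFB1 against Ctrl gave 0 lost and 1 shorter, against 153 and 244 of 8833 genes. With peaks carrying the gene name only it gave 1 shorter, against 238 of 9080 genes. With a ratio of 1.5 for longer or shorter, TGFB1 against Ctrl gave 3 longer of 33 members, against 172 of 8436 genes covered in both libraries. The totals of 8833 and 9080 genes just given also hold genes covered in only 1 library, which could not be called shorter. The widest region changed no count of members. An overlap of 50% took the longer members in TGFB1 from 6 to 5, and all longer genes from 890 to 886. Genes by annotated start gave 41, 48 and 14 covered members and 8 gained. Over all 11137 genes of that kind, 10579, 10960 and 6391 were covered and 556 were gained. The member counts of these alternatives were all within 1.5 times. Scores are not scaled between libraries, so a limit of 50 need not be equally strict in each list. Depth is unknown, each group is 1 library, and library and treatment cannot be told apart, so that a missing peak says only that none was called.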

Other observations

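Naming genes by GENCODE M21 starts within 500 bp of a region, an alternative chosen after seeing the data, raised the number of homeobox genes to 49. Ctrl covered 41, TGFB1 48 and TGFB1+miR-9-LOF 14 of them. Over all 11137 genes named in this way the libraries covered 10579, 10960 and 6391. Among the genes added, Meis2, a HOX cofactor gene, had 0, 1254 and 0 bp in Ctrl, TGFB1 and TGFB1+miR-9-LOF. Hoxb3 had 0, 1225 and 0 bp, and these genes raised the number gained in TGFB1 over Ctrl to 8 of 48. Over all genes named in this way and covered in TGFB1, 5.07% were gained. Of the 48 genes covered in TGFB1, 34 (70.8%) were lost in TGFB1+miR-9-LOF, against 41.8% of all genes named in this way.

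Some regions of the HOX clusters carried names of other genes. The region named Gm53 in the HoxB cluster had 2927, 2737 and 2040 bp. The region named Gm36878 in the HoxC cluster had 2307, 2021 and 1684 bp. Both were covered in all 3 libraries.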
